A study of Mus musculus with 11 samples.

Results

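Long noncoding RNAs (lncRNAs) of 2 kinds were followed in mouse colorectal organoids: Malat1 and Neat1, which stay in the nucleus, and Gas5, Snhg1, Snhg3, Snhg8 and Snhg12, which are host genes of small nucleolar RNAs (snoRNAs). They were chosen by gene symbol, and all 7 had a row among the 47131 genes of the deposited count table. Poly(A) RNA was sequenced from 11 organoid libraries. In 6 of them the organoids had received NAP, an agent the labels do not spell out, at 10 pM over 48 h. The other 5 were controls, given PBS as vehicle by the treatment label and called untreated in the sample descriptions. The organoids all derived from the colon of C57BL/6J females, 6 to 8 weeks old, and were grown in Matrigel, and all libraries carry the same batch label. They are labelled biological replicates with no word on shared mice or dishes, so each p-value speaks to library spread alone, part of which may be technical.

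Malat1 collects in nuclear speckles, bodies rich in splicing factors, and Neat1 is the scaffold on which paraspeckles are built. Most snoRNAs of vertebrates are cut out of the introns of other genes, and guide the chemical modification or processing of ribosomal RNA. The spliced exons of hosts such as Gas5 are exported, engaged by ribosomes and degraded by nonsense-mediated decay. Gas5 and several other hosts belong to the 5′ TOP class (5′ terminal oligopyrimidine), whose transcripts begin with a C followed by pyrimidines, as those of ribosomal protein genes do.

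The bases around the annotated start are shown for 6 of the 7 genes, because the 5′ TOP class is defined by the bases at the start. The RefSeq promoter table (GRCm38.p6) held entries for these 6, and Neat1 had none. Each line gives 40 bases before the annotated start and 25 from it on. Capitals mark a run of at least 6 C or T bases that opens with C within 10 bases of the start, and the 6 letters TATAAA or TATATA 45 to 15 bases before it. Both were searched only on the strand printed here, which reads as the transcript does.
Gas5: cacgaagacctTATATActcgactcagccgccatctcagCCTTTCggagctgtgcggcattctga
Snhg8: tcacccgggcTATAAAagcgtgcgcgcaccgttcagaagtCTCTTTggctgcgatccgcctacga
Snhg12: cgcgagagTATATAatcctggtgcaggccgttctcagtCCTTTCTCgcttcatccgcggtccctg
Snhg1: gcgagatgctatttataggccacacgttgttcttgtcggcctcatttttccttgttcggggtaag
Snhg3: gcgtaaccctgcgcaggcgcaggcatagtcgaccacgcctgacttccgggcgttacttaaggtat
Malat1: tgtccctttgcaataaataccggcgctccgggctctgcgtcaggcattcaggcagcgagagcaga

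The windows lie at chr1:161035126-161035190 (plus strand, the second of 2 Gas5 entries), chr3:123508312-123508376 (minus, Snhg8), chr4:132308638-132308702 (plus, Snhg12), chr19:8723447-8723511 (plus, Snhg1), chr4:132353662-132353726 (minus, Snhg3) and chr19:5802648-5802712 (minus, Malat1), all on GRCm38.p6. Gas5, Snhg8 and Snhg12 held both the pyrimidine run and the TATA letters. The run was 6, 6 and 8 bases long in these 3 genes. Of all 32851 promoter entries 19.2% held such a run and 2.96% the TATA letters, against 47.4% and 5.26% of 76 entries of ribosomal protein genes. Snhg1, Snhg3, Malat1 and the first Gas5 entry held neither within these windows, which depend on where the start is annotated.

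The libraries were of similar depth, with 16546263 to 21947414 counts each. Epithelial markers summed to 13370 to 17273 CPM (counts scaled by library size and TMM) after NAP and 12096 to 24289 CPM in controls. Fibroblast markers reached at most 21.9 CPM, in NAP 5. The summed markers of smooth muscle, endothelium, and glia and neurons each stayed at or below 3.87 CPM, and those of leukocytes at 6.04 to 23.6 CPM. The controls differed among themselves: 9 stem and cycling crypt markers summed to 790, 655 and 1198 CPM in controls 1, 3 and 4 but to 276 and 282 CPM in controls 2 and 5, with the NAP libraries at 430 to 624 CPM. Markers of differentiated colonocytes summed to 5986 to 10920 CPM in NAP libraries, against 3053, 13311, 4543, 2212 and 13420 CPM in controls 1 to 5. The mitochondrial chromosome held 6.51 ± 1.25% of counts after NAP and 3.73 ± 0.90% in controls (SD, n = 6 and 5; p = 0.00433 in a two-sided exact permutation test, 0.0173 after adjustment for 4 measures per library). Ribosomal protein genes held 4.04 ± 1.14% after NAP and 5.89 ± 0.74% in controls (p = 0.0152 in the same exact test, 0.0303 adjusted). Genes with at least 1 count numbered 20813 ± 1073 after NAP and 23525 ± 2762 in controls (p = 0.0368 in the same exact test, 0.0491 adjusted), with controls 2 and 5 highest at 27218 and 25725. The part of these library differences in the results was not tested.

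None of the 7 RNAs passed the test between NAP and control. Malat1 averaged 2.07-fold and Neat1 1.44-fold higher after NAP, and the 5 snoRNA hosts were 1.07-fold to 1.47-fold lower, each with overlap between the groups. By edgeR (quasi-likelihood fit, adjusted p below 0.05) 0 of the 7 passed, where 2.12% of 14840 tested genes did and 1.07% passed as lower. DESeq2 and limma on voom also called 0 of the 7, beside 13.6% of 12265 genes with an adjusted p in DESeq2 and 2.04% of genes in voom. At an unadjusted p below 0.05 stood 2 of 7, Malat1 and Snhg8, beside 23.6% of all tested genes. In 0 of 7 were the groups free of overlap, beside 4.71% of all tested genes. In bulk RNA, a lower level in all cells and fewer cells of a type cannot be told apart. The median log2 fold change was −0.22 over the 7 RNAs and −0.07 over all tested genes.

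**Figure D1:**
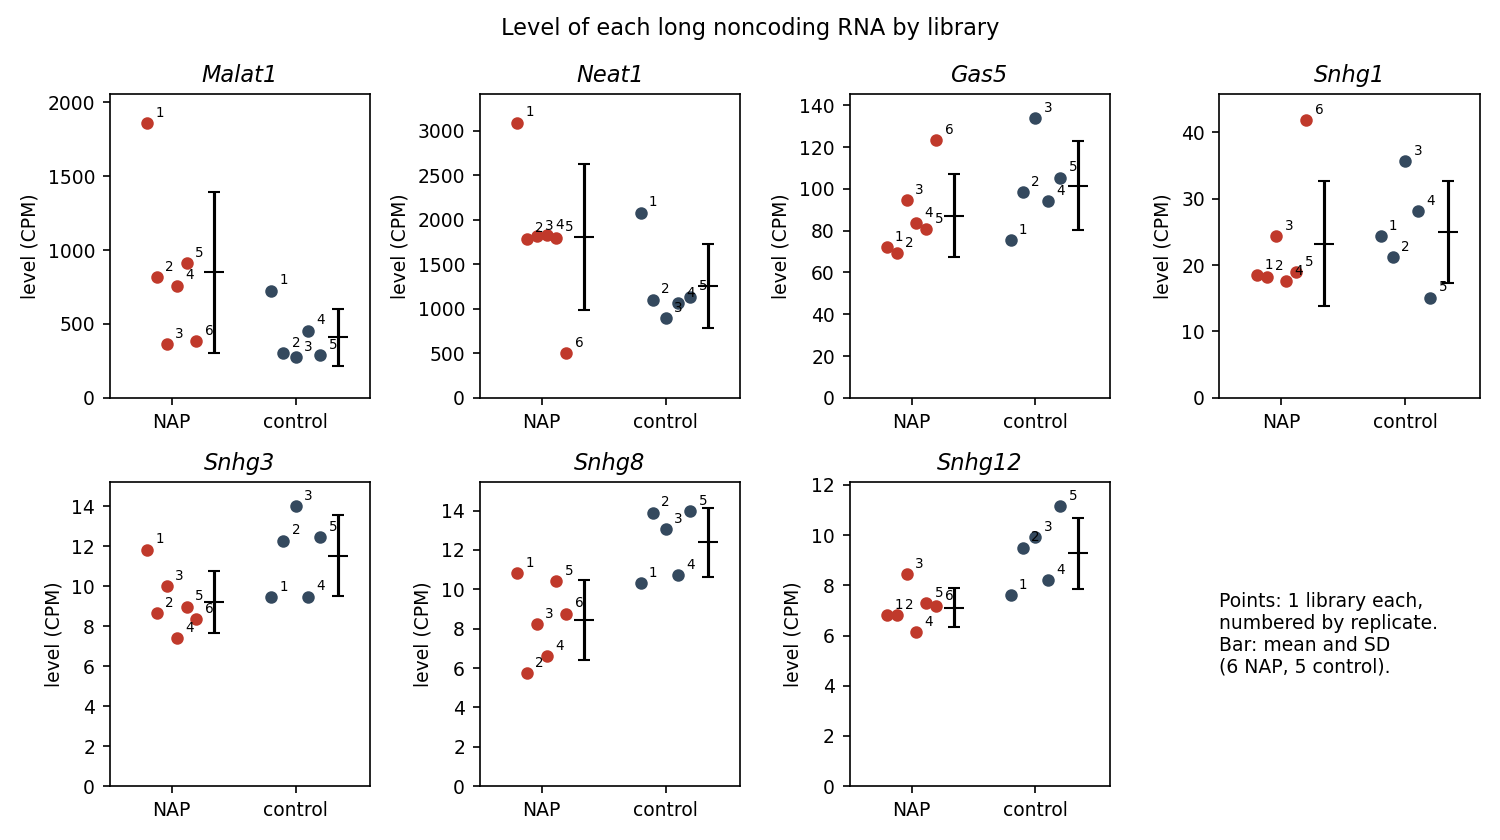
Level of each RNA in every library, in CPM scaled with TMM, on linear axes that start at 0, with 6 NAP libraries left and 5 control libraries right; numbers are replicate numbers, and bars give the mean and SD. Malat1 reaches 1857 CPM in NAP 1 and Snhg1 41.8 CPM in NAP 6, while for Snhg12 5 of 6 NAP libraries lie below every control.

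Malat1 (gene identifier 72289, chromosome 19 from 5845718 to 5852700 of GRCm39, minus strand) is a 6983-base transcript of 1 exon in the deposited table. It had 1857, 817, 365, 759, 912 and 384 CPM in NAP 1 to 6, against 725, 304, 276, 456 and 288 CPM in controls 1 to 5. NAP 1, 2, 4 and 5 lay above every control, while NAP 3 and NAP 6 lay above controls 2, 3 and 5 but below controls 1 and 4. The log2 fold change was 1.05 (SE 0.42, approximate 95% interval from 0.22 to 1.88), with an adjusted p of 0.158 in edgeR's test. Without NAP 1 it was 0.66, and without control 1 it was 1.36. With controls 1 and 4, the highest in stem and cycling markers, left out it was 1.58 (edgeR adjusted p = 0.0556), the smallest p among the 28 alternative settings. Among all tested genes Malat1 stood at the 97.2 percentile of log2 fold change.

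The small cytoplasmic RNA cut from the end of Malat1, listed as Mascrna, lies within the same interval and had 0 counts in every library. It carries no poly(A) tail. Its row lies inside the Malat1 exon on the same strand, and no source used here says how reads shared by overlapping rows were counted. A count of 0 thus sets no limit on its level. No other row of the table overlaps Malat1.

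Neat1 (identifier 66961, chromosome 19 from 5874736 to 5895508, minus strand) lies close to Malat1 on the same strand. Its row has the full 20773 bases of the long, paraspeckle-building isoform, so reads of the short isoform, which shares the same beginning, cannot be told apart from it. Neat1 had 3090, 1790, 1818, 1825, 1799 and 503 CPM in NAP 1 to 6, against 2081, 1103, 893, 1061 and 1137 CPM in controls 1 to 5. NAP 2 to 5 were nearly level with each other and above 4 of 5 controls, but below control 1. NAP 1 was the highest and NAP 6 the lowest of all 11 libraries. The log2 fold change was 0.52 (SE 0.37, interval −0.20 to 1.25, adjusted p = 0.414 in edgeR's test), 0.73 without NAP 6, 0.79 without control 1 and 0.30 without NAP 1.

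Malat1 and Neat1 did not keep a fixed ratio. There were 0.601, 0.457, 0.201, 0.416, 0.507 and 0.763 Malat1 counts for each Neat1 count in NAP 1 to 6, against 0.348, 0.275, 0.309, 0.429 and 0.253 in controls 1 to 5. NAP libraries thus held both the lowest ratio, in NAP 3, and the highest, in NAP 6. Together both RNAs took 0.263 ± 0.145% of counts after NAP and 0.176 ± 0.0904% in controls (SD, n = 6 and 5).

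Gas5 (identifier 14455, chromosome 1 from 160862171 to 160866109, plus strand) carries 8 snoRNA rows of the table within its interval. It had 72.2, 69.2, 94.6, 83.5, 80.7 and 123 CPM in NAP 1 to 6, against 75.4, 98.3, 134, 94.3 and 105 CPM in controls 1 to 5. The groups overlapped widely, with 2 of 6 NAP libraries below every control and NAP 6 above all controls but control 3. The log2 fold change was −0.22 (SE 0.19, interval −0.58 to 0.15, adjusted p = 0.502 in edgeR's test), −0.093 without control 3 and −0.33 without NAP 6. The start of Gas5 overlaps Zbtb37 on the opposite strand. No source used here gives the strand setting of the counting, so reads in the overlap cannot be told apart.

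Snhg8 (identifier 69895, chromosome 3 from 123301201 to 123301985, minus strand) is a 785-base row with no intron, host of Snora24. It had 10.8, 5.75, 8.24, 6.63, 10.4 and 8.77 CPM in NAP 1 to 6, against 10.3, 13.9, 13.1, 10.7 and 13.96 CPM in controls 1 to 5. All 6 NAP libraries were below the control mean and 4 below every control, with NAP 1 and NAP 5 level with controls 1 and 4. Among the hosts it had the largest difference, a log2 fold change of −0.55 (SE 0.21, interval −0.97 to −0.14, adjusted p = 0.142 in edgeR's test). DESeq2 gave the smallest adjusted p of its 28 alternative settings, 0.0783.

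Snhg12 (identifier 100039864, chromosome 4 from 132035989 to 132038335, plus strand) hosts Snora16a, Snora44, Snora61 and Snord99. It had 6.81, 6.82, 8.46, 6.14, 7.29 and 7.16 CPM in NAP 1 to 6, against 7.61, 9.50, 9.91, 8.20 and 11.2 CPM in controls 1 to 5. Only NAP 3, above controls 1 and 4, kept the groups from separating. The log2 fold change was −0.38 (SE 0.19, adjusted p = 0.241 in edgeR's test). Its approximate interval, −0.75 to −0.01, leaves out 0 only because it is too narrow, as edgeR's unadjusted p was 0.0642. Its spread within a group was the narrowest of the 7 RNAs after NAP, with an SD of 10.8% of the mean.

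Snhg3 (identifier 399101, minus strand of chromosome 4 from 132079244 to 132080997) hosts Snora73a and Snora73b, the U17 snoRNAs, which act in the cutting of ribosomal RNA precursors. It had 11.8, 8.68, 10.03, 7.42, 8.98 and 8.34 CPM in NAP 1 to 6, against 9.45, 12.3, 14.02, 9.48 and 12.5 CPM in controls 1 to 5. NAP 2, 4, 5 and 6 lay below controls 1 and 4, while NAP 1 and NAP 3 lay between these and the other controls. The log2 fold change was −0.32 (SE 0.20, interval −0.71 to 0.06, adjusted p = 0.336 in edgeR's test).

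Snhg1 (identifier 83673, chromosome 19 from 8700851 to 8703690, plus strand) carries 8 snoRNA rows. It had 18.4, 18.3, 24.4, 17.6, 18.97 and 41.8 CPM in NAP 1 to 6, against 24.4, 21.2, 35.7, 28.2 and 15.1 CPM in controls 1 to 5. NAP 6 was the highest and control 5 the lowest of all libraries. The log2 fold change was −0.10 (SE 0.27, interval −0.64 to 0.43, adjusted p = 0.848 in edgeR's test), −0.34 without NAP 6 and 0.066 without control 3, so even its direction rested on single libraries.

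Levels of different genes can be compared only per length, for which the deposited FPKM values were used. These values hold for RNA caught in poly(A) libraries, and how fully each RNA was caught was not measured. Gas5 was highest, with 136 ± 30.5 FPKM after NAP and 158 ± 32.8 FPKM in controls (SD, n = 6 and 5 here and below). In controls Neat1 (58.2 ± 21.3), Malat1 (56.5 ± 25.8) and Snhg1 (50.4 ± 15.3) followed, and did not differ beyond their spread. After NAP Malat1 had 118 ± 74.9 FPKM, not separated from Gas5 by its spread, Neat1 84.2 ± 37.9 and Snhg1 47.3 ± 18.9. Snhg3 was lower, at 20.4 ± 3.34 FPKM after NAP and 25.5 ± 4.47 in controls. Snhg12 (11.4 ± 1.23 and 14.8 ± 2.31) and Snhg8 (10.4 ± 2.49 and 15.2 ± 2.24) were lowest and within each other's spread in both groups. The value of Neat1 is a mean over the whole long isoform and falls below the true level of the shared first part wherever the short isoform is present.

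Set against each other within a library, the 2 classes stood further apart on average after NAP. The mean log2 CPM of Malat1 and Neat1 minus that of the 5 hosts was 7.18, 6.48, 5.53, 6.43, 6.31 and 4.49 in NAP 1 to 6, against 6.17, 4.83, 4.34, 5.22 and 4.84 in controls 1 to 5. NAP 1, 2, 4 and 5 lay above every control, NAP 3 lay below control 1 alone, and NAP 6 lay below all controls but control 3. The means were 6.07 ± 0.94 after NAP and 5.08 ± 0.69 in controls (SD, n = 6 and 5), a difference of 0.99. A within-library difference does not depend on how libraries are scaled. It can depend on how fully each RNA was caught in the poly(A) libraries, which was not measured. No test was made of it, since the genes were picked with earlier results of these data known. The difference was 0.77 to 1.31 with each library left out in turn, 0.73 with Malat1 left out of it and 1.25 with Neat1 left out.

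**Figure D2:**
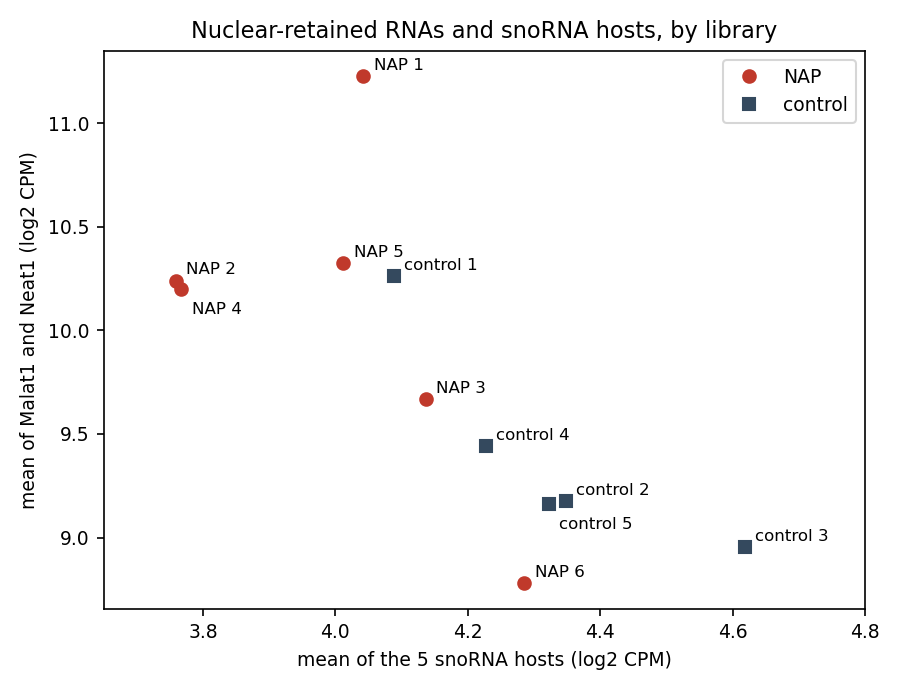
Mean log2 CPM of Malat1 and Neat1 (vertical) against that of the 5 snoRNA hosts (horizontal) in each library, with circles for 6 NAP and squares for 5 control libraries. NAP 6, at 4.29 and 8.78, lies within the host range of the controls but below every control on the vertical axis, and control 1, at 4.09 and 10.3, lies near NAP 5.

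The nuclear mean was 10.07 ± 0.81 after NAP and 9.40 ± 0.51 in controls, and the host mean 4.00 ± 0.21 after NAP and 4.32 ± 0.20 in controls (log2 CPM). For the hosts, 6 of 6 NAP libraries lay below the control mean and 0 above every control. NAP 6, with the lowest nuclear mean (8.78), had the highest host mean of the NAP libraries (4.29). Ribosomal protein genes held 5.94% of counts in that library and 2.97 to 4.84% in the other NAP libraries. Control 1, with the highest nuclear mean of the controls (10.3), had their lowest host mean (4.09).

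After the group means were removed, some of the 21 pairs of RNAs varied together over the 11 libraries, while others had r near 0. These values are descriptions only, since all points share library depth and scaling. Malat1 followed Neat1 (Pearson's r = 0.75, Spearman's rho = 0.58, r = 0.87 without NAP 1 and NAP 3). Both ran opposite to Gas5, at r = −0.80 for Malat1 (rho = −0.90, r = −0.89 without NAP 1 and NAP 3) and r = −0.84 for Neat1 (rho = −0.66, r = −0.77 without NAP 1 and NAP 6). Snhg3 went with Snhg8 (r = 0.68, rho = 0.65) and Snhg12 (r = 0.66, rho = 0.69). Gas5 and Snhg1 had r = 0.66, which was −0.10 without NAP 6 and control 3, so it rested on those libraries. Pairs near 0 included Malat1 with Snhg3 and Snhg8 (r = −0.06 and −0.00086), Neat1 with Snhg8 (−0.05) and Snhg1 with Snhg3, Snhg8 and Snhg12 (−0.07, −0.0041 and −0.05). Spearman's rho of these pairs was −0.20 to 0.08 over all 11 libraries. Without NAP 1 and NAP 3 the Malat1 pairs had r = −0.54 and −0.44. The Neat1 pair had −0.37 without NAP 1 and NAP 6. The Snhg1 pairs had −0.32, −0.25 and −0.33 without NAP 6 and control 3, so these values near 0 also rested on single libraries.

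The genes whose pattern was most like each RNA, as the 3 highest r of log2 CPM with group means removed, were these. For Malat1 they were Als2cl, Pias3 and LOC118568650 (r = 0.96, 0.93 and 0.92, n = 11 libraries here and below). For Neat1 they were Gripap1, Dynll2 and Scrib, at r = 0.95 each. For Gas5 they were the lncRNA Gm15848, Fkbp3 and the ribosomal protein gene Rps25 (0.98, 0.95 and 0.94), and for Snhg1 Dcaf17, the snoRNA LOC115487878 and Pecr (0.97, 0.96 and 0.94). Snhg3 was followed by Pbxip1, Smpd1 and Tmem258 (0.91, 0.89 and 0.87), Snhg8 by 2810029C07Rik, Spaca7 and Gm47708 (0.90, 0.87 and 0.84) and Snhg12 by Igflr1, Pex2 and Nudt16l1 (0.89, 0.88 and 0.87). Over so few libraries and so many genes some r are high in any data. By edgeR 0 of these 21 genes passed, beside 2.12% of all tested genes.

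The table also holds the snoRNAs carried by the hosts. Within the 5 host intervals lay 23 snoRNA rows, of which 22 had counts, while Snora24, inside the Snhg8 exon, had 0 in every library. How reads shared with the Snhg8 exon were counted is not given, so this 0 sets no limit on Snora24. Mature snoRNAs have no poly(A) tail, so whether the counts in the 22 rows come from host introns or from snoRNAs was not tested. For each 100 counts of the 5 hosts, the snoRNA rows had 17.3, 19.7, 19.2, 16.7, 18.9 and 16.7 counts in NAP 1 to 6, against 23.1, 7.11, 14.5, 19.1 and 7.84 in controls 1 to 5. The NAP libraries were close together (18.1 ± 1.34), whereas the controls spread widely (14.3 ± 6.96), with controls 2 and 5 lowest and control 1 highest.

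**Figure D3:**
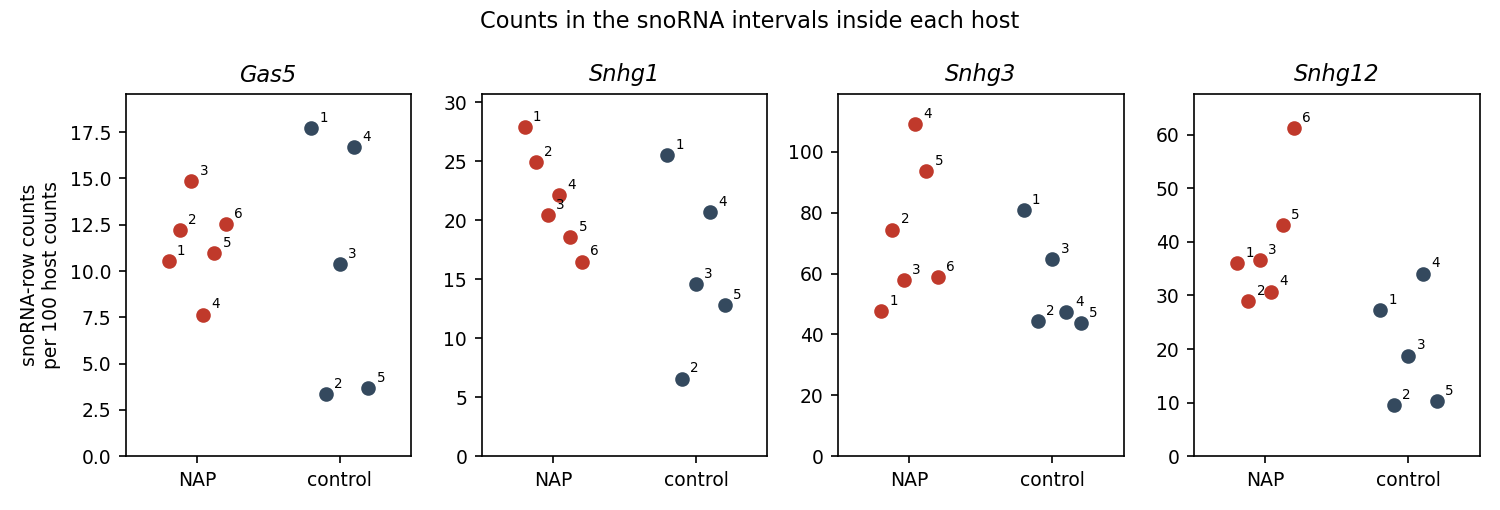
Counts in the snoRNA rows inside Gas5, Snhg1, Snhg3 and Snhg12 per 100 counts of the host, by library, NAP left and control right, numbered by replicate. Controls 2 and 5 are the lowest 2 controls at each host, for example 3.34 and 3.67 at Gas5, against 7.65 to 14.8 in NAP libraries.

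Relative to its own level, the split among controls was wide at Gas5, where the snoRNA rows had 10.5, 12.2, 14.8, 7.65, 10.98 and 12.5 counts per 100 Gas5 counts in NAP 1 to 6, against 17.7, 3.34, 10.4, 16.7 and 3.67 in controls 1 to 5. At Snhg12 the NAP libraries had 28.9 to 61.2 and the controls 9.56 to 34.1 per 100 host counts. At Snhg3, where the Snora73 rows are longest, the values were 47.6 to 109 after NAP and 43.7 to 81.0 in controls. Of the 23 rows 13 were tested, and 0 passed by edgeR, DESeq2 or limma on voom, with 0 at an unadjusted p below 0.05 in edgeR. Over all tested genes 2.12%, 13.6% and 2.04% passed by these methods, and 23.6% had an unadjusted p below 0.05 in edgeR. The log2 fold changes of the 13 rows ran from −0.71 to 0.85, and 9 of 13 were positive while all 5 hosts were negative. The largest, at Snora16a inside Snhg12, was 0.85 (adjusted p = 0.293), on 2 to 29 counts a library.

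Fold changes varied with gene length across all genes. The hosts are short, 437 to 785 bases, and Malat1 and Neat1 long. The median log2 fold change was −0.23 over 311 tested genes of up to 500 bases and −0.32 over 975 genes of 500 to 1000 bases. It was 0.08 over 2239 genes of 6000 to 10000 bases and 0.14 over 236 genes above 20000 bases. With the length trend removed from each library, the host log2 fold changes were 0.054 for Gas5, 0.094 for Snhg1, −0.02 for Snhg3, −0.27 for Snhg8 and −0.09 for Snhg12, while Malat1 remained at 0.98 and Neat1 at 0.40. Tested lncRNAs had medians of 0.05 in the 220 of up to 1000 bases, 0.14 in the 805 of 1000 to 6000 bases and 0.06 in the 266 above 6000 bases.

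**Figure D4:**
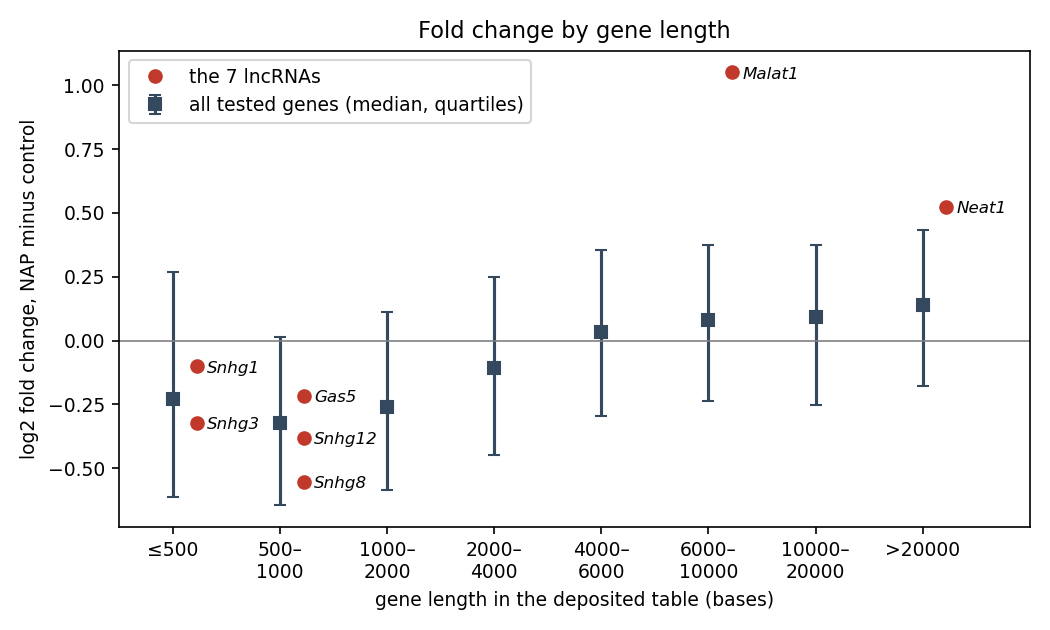
Log2 fold change, NAP minus control, by gene length as the deposited table gives it: squares with bars are the median and quartiles of all tested genes in each length class, and circles are the 7 lncRNAs. The 5 hosts lie within the quartiles of their class, and Malat1 and Neat1 above the upper quartile of theirs.

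By library, genes above 6000 bases stood 0.07, 0.36, −0.06, 0.17, 0.33 and 0.15 above genes of up to 1000 bases in NAP 1 to 6, as a difference of median log2 deviations. The same measure was 0.29, −0.93, −0.26, 0.40 and −0.82 in controls 1 to 5. Controls 2 and 5 thus favoured short genes, and they were among the 3 highest libraries for Snhg8, Snhg12 and Snhg3, which held 13.9, 9.50 and 12.3 CPM in control 2 and 13.96, 11.2 and 12.5 CPM in control 5. Without those 2 controls the log2 fold changes were −0.40 for Snhg8, −0.24 for Snhg12, −0.23 for Snhg3 and 0.83 for Malat1, none past the test. Genes under 45% GC stood 0.27 ± 0.30 above genes over 55% GC after NAP and −0.34 ± 0.28 in controls on the same scale. With the GC trend removed instead, Malat1 was at 0.89, Neat1 at 0.49 and the 5 hosts at −0.67 to −0.39, again with none past the test.

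The wider set of snoRNA hosts stood on the same side. Of 15 tested hosts outside the 5, 14 were negative, with a median of −0.45. All were listed as lncRNA hosts, but Cwf19l1 (−0.22) is a protein-coding gene. Over all 14840 tested genes 8200 were negative, and over 80 ribosomal protein genes 77. Of these 15, 0 passed by edgeR (5 at an unadjusted p below 0.05) and 2 by DESeq2. Beside them stood 2.12%, 23.6% and 13.6% of all tested genes, in the same order. The hosts of the 15 with the smallest p were Snhg7, Epb41l4aos, Zfas1 and Snhg20. Snhg7 had 5.47 ± 1.71 CPM after NAP and 10.8 ± 1.87 CPM in controls, with all 6 NAP libraries below every control (log2 fold change −0.98, SE 0.26, adjusted p = 0.0613 in edgeR's test). Epb41l4aos had 19.98 ± 4.13 and 44.2 ± 22.0 CPM, Zfas1 50.2 ± 13.2 and 77.9 ± 18.7 CPM, and Snhg20 9.40 ± 2.17 and 15.3 ± 4.55 CPM, in NAP and control libraries. The exception was Snhg14, the very long host of the imprinted Prader-Willi region, at 16.2 ± 8.33 CPM after NAP and 8.97 ± 4.54 CPM in controls (adjusted p = 0.234).

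**Figure D5:**
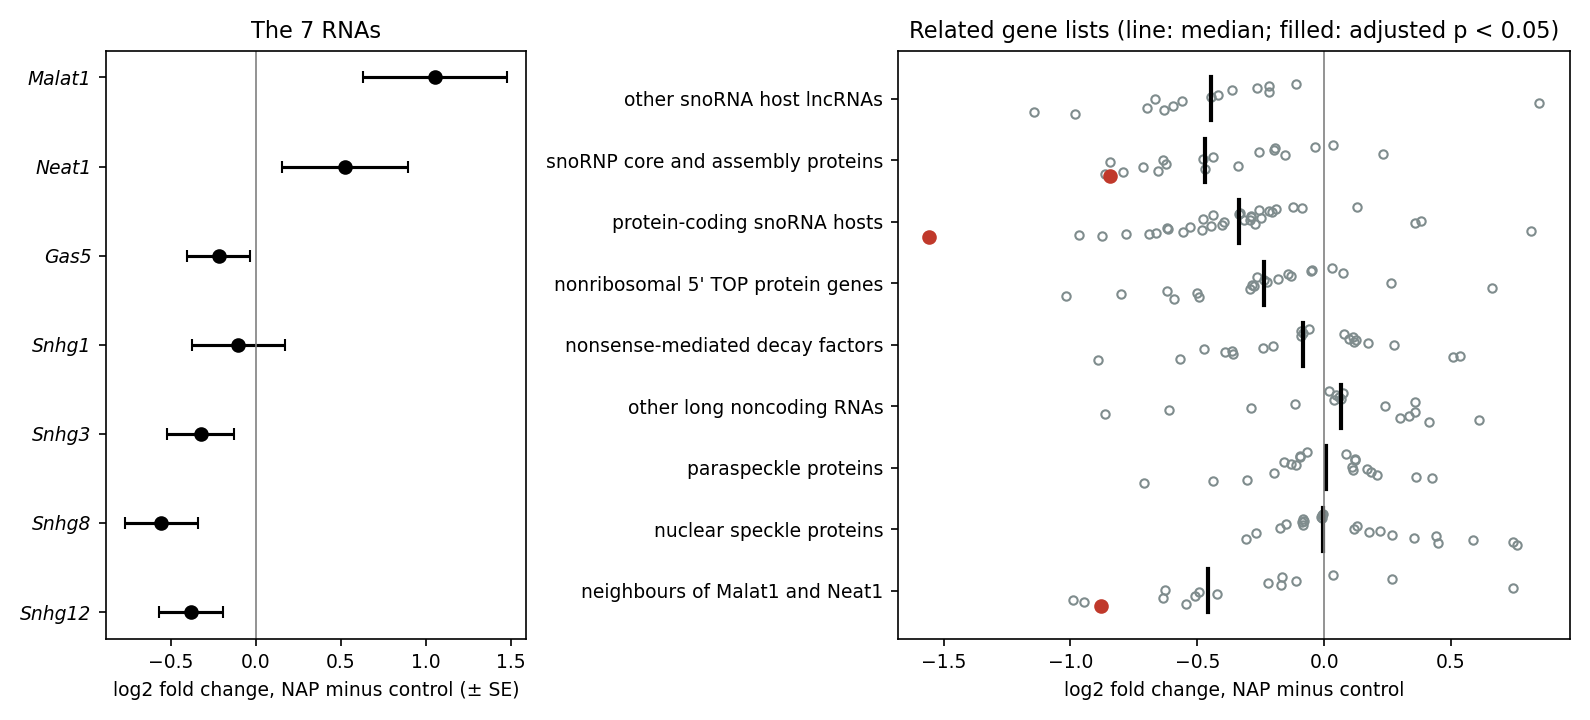
Left, log2 fold change with SE of the 7 RNAs; right, log2 fold changes of all tested members of 9 related gene lists, with the median as a line and genes past an adjusted p of 0.05 filled. The medians lie at −0.45 for the other lncRNA hosts, a list that includes the protein-coding Cwf19l1, and near 0 for paraspeckle and nuclear speckle proteins. Ruvbl2, Rpl7a and Pola2 are the filled points.

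Protein-coding snoRNA hosts, many of them ribosomal protein genes, were negative in 30 of 34 (median −0.33). At an unadjusted p below 0.05 in edgeR stood 11 of the 34, and 7 passed by DESeq2, beside 23.6% and 13.6% of all tested genes. Rpl7a was the 1 member that passed by edgeR, where 2.12% of all tested genes did, and fell. It averaged 122 ± 21.8 CPM after NAP and 358 ± 139 CPM in controls (log2 fold change −1.56, adjusted p = 0.0343 in edgeR's test). Rpl13a (−0.87), Rpl13 (−0.97) and Rps2 (−0.69) had the next smallest p, none past the test. Of 21 nonribosomal 5′ TOP genes 17 were negative (median −0.24), and 0 passed by edgeR (6 at an unadjusted p below 0.05) and 4 by DESeq2. Eef1d and Eif3l, for translation elongation and initiation, were at −0.59 and −0.49, and Fau, which encodes a ubiquitin-like fusion with a ribosomal protein, was at −1.02.

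Proteins that snoRNAs work with were negative in 17 of 19 (median −0.47). By edgeR 1 of them passed (6 at an unadjusted p below 0.05), and 2 passed by DESeq2. Beside them, 2.12% of all tested genes passed by edgeR, 23.6% had an unadjusted p below 0.05 and 13.6% passed by DESeq2. The list includes Aar2 (−0.47), a factor of a splicing particle rather than of snoRNA particles. Ruvbl2, an ATPase of the complex that assembles snoRNA particles, had 36.4, 21.8, 39.0, 25.3, 24.0 and 30.0 CPM in NAP 1 to 6, against 57.4, 52.0, 51.4, 59.7 and 43.3 CPM in controls 1 to 5. All NAP libraries lay below every control, a log2 fold change of −0.84 (SE 0.18, adjusted p = 0.0417 in edgeR's test). The call of Ruvbl2 held in 14 of 28 alternative settings, and was lost without NAP 2, 4, 5 or 6 or control 1, 2, 3 or 5. Pih1d1, of the same assembly complex, was at −0.87, Nhp2, a core protein of H/ACA particles, at −0.79 and Shq1, an assembly chaperone, at −0.65, none past the test.

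Nonsense-mediated decay factors were mixed, with 9 positive and 12 negative of 21 (median −0.08), and 0 passed by edgeR (6 at an unadjusted p below 0.05) and 5 by DESeq2. Of all tested genes 2.12% passed by edgeR, 23.6% had an unadjusted p below 0.05 and 13.6% passed by DESeq2. Upf3a had 21.04 ± 4.78 CPM after NAP and 39.0 ± 11.1 CPM in controls (adjusted p = 0.0516), and Smg9 was at −0.57. Smg1, the kinase that acts on Upf1, was at 0.51 and the 5′ exonuclease Xrn1 at 0.54, with adjusted p of 0.0826 and 0.0991 in edgeR's test.

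The proteins that share nuclear bodies with Malat1 and Neat1 were centred on 0. Of 20 paraspeckle proteins 10 were positive (median 0.01), and 0 passed by edgeR (2 at an unadjusted p below 0.05) and 2 by DESeq2. For these and the speckle proteins below, the shares of all tested genes were 2.12%, 23.6% and 13.6% in the same order. The core paraspeckle proteins Nono and Sfpq had 195 ± 22.1 and 236 ± 15.2 CPM after NAP and 211 ± 52.9 and 252 ± 86.3 CPM in controls. Dazap1 (−0.71, adjusted p = 0.0539), Nudt21 (−0.44), Rbm14 (−0.30) and Hnrnph3 (0.42) had the smallest p. Of 23 nuclear speckle proteins 11 were positive (median −0.0046), and 0 passed by edgeR (6 at an unadjusted p below 0.05) or DESeq2, with Thoc2 at 0.76, the splicing kinases Clk1 and Clk4 at 0.74 and 0.45 and the spliceosome gene Sf3b1 at 0.59.

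Other noncoding RNAs of the list were positive in 13 of 17 tested (median 0.07), and 0 passed by edgeR (3 at an unadjusted p below 0.05) and 1 by DESeq2. Over all tested genes these shares were 2.12%, 23.6% and 13.6%. The 17 include the short RNAs Rmrp (275 bases) and Rpph1 (325 bases), which are not lncRNAs. Both were positive, at 4.86 and 13.9 CPM in NAP 1 but at most 0.43 and 2.07 CPM in the other NAP libraries. The nuclear lncRNA Firre had 122 ± 9.86 CPM after NAP and 91.9 ± 18.0 CPM in controls (adjusted p = 0.127), Tug1 122 ± 16.4 and 98.8 ± 6.34 CPM, Oip5os1 45.1 ± 13.3 and 29.6 ± 7.38 CPM and Mir22hg 60.0 ± 4.95 and 47.6 ± 12.7 CPM. Among all 1291 tested lncRNA rows 10 passed higher and 2 lower, with a median of 0.10.

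Protein-coding genes around Malat1 and Neat1 on chromosome 19 mostly had negative log2 fold changes. Of 16 tested neighbours 13 were negative, with a median of −0.46. By edgeR 1 passed, 8 had an unadjusted p below 0.05, and 5 passed by DESeq2. The shares of all tested genes were 2.12%, 23.6% and 13.6% in the same order. Pola2, a subunit of the DNA polymerase alpha and primase complex, had 23.5, 21.5, 22.5, 18.1, 18.2 and 24.7 CPM in NAP 1 to 6, against 53.5, 38.0, 32.9, 34.4 and 37.9 CPM in controls 1 to 5, without overlap. With an SE of 0.16, the log2 fold change of −0.88 passed edgeR's test at an adjusted p of 0.0343. The calls of Pola2 and Rpl7a held in 19 and 21 of 28 alternative settings, and both were lost without NAP 2, 4 or 5 or control 1, 2 or 5. Fam89b and Sipa1 were at −0.95 and −0.99 (adjusted p = 0.0598 and 0.0631) and Frmd8 at −0.51, none past the test. The difference between these genes and Malat1 or Neat1 was not tested.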

How the data were processed

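The authors deposited a table of read counts per gene and a table of FPKM values for 11 libraries. The submitters' processing notes name Trimmomatic 0.39 for trimming, HISAT2 2.2.1 for alignment, the build GRCm39 and, for counting, featureCounts from Subread 2.0.8; these roles are the usual ones of the tools. No source used here gives the annotation release, the strand setting or the handling of multiply mapped reads. Each deposited FPKM value equalled the count divided by gene length times 1 constant per library. Columns were matched to libraries by the names in the labels.

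Genes were kept with filterByExpr (14840 of 47131), and scaled with TMM. NAP was compared with control by robust quasi-likelihood fits in edgeR 4.0.16 under R 4.3.3, with Benjamini-Hochberg adjustment over all tested genes and a threshold of 0.05. All libraries entered without covariates, as the labels give 1 batch. Logged CPM used a prior count of 2. The SE is the log2 fold change over the square root of the test statistic. The intervals are normal approximations from this SE, so they are narrower than edgeR's test implies. Alternatives used DESeq2 1.42.0, limma 3.58.1 and lowess trends (span 0.3) on length and on the GC content of GENCODE M21 transcripts, found for 92.6% of tested genes. The procedure was tested on simulated data. Unnamed rows (800) held 0.154 to 0.264% of counts and were kept.

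The members and lists were chosen with earlier results of these data known. Named were the 7 members, in each list the 4 smallest p and any call, and for each member the 3 most similar genes; some genes this rule names are not reported here. Other genes were named after their values were seen: Snhg14, Nono, Sfpq, Frmd8 and the snoRNAs of the hosts.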

Additional observations from a re-analysis of the deposited data

Results flagged for a closer look

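Values were checked in 16 groups: each RNA and the difference between the classes, in each group of libraries. In 3 of them a library's gap to the nearest other was large for the group's range. About 1 in 20 would be flagged by chance if the values followed a normal distribution. The RNAs were checked in unlogged CPM, and the rate for such values was not tested. Malat1 had 1857 CPM in NAP 1, against 365 to 912 CPM in the other NAP libraries. Neat1 had 2081 CPM in control 1, against 893 to 1137 CPM in the other controls. Snhg1 had 41.8 CPM in NAP 6, against 17.6 to 24.4 CPM in the other NAP libraries.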

How the results depend on the processing

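None of the 7 RNAs passed in any of 28 alternative settings. Malat1, Neat1, Snhg3, Snhg8 and Snhg12 kept their sign in all 28. With the length trend removed Gas5 stood at 0.054 and Snhg1 at 0.094, opposite to their sign otherwise, and Snhg1 ran from −0.34 to 0.066 (without control 3) with each library left out. The difference between the classes was 0.99 in the main setting. Over 23 alternatives it ran from 0.73 to 1.40, the highest with controls 1 and 4 left out. All 23 lay within 1 SD (pooled between libraries) of 0.99. That limit is wide, as the SD was 0.94 in NAP and 0.69 in control libraries. None of these alternatives removed the length or GC trend. The mean log2 fold changes of nuclear RNAs and hosts were 0.79 and −0.32 in the main edgeR fit. They were 0.69 and −0.05 with the length trend removed, and 0.69 and −0.49 with the GC trend removed. The number of genes called, 315, was less stable: 41 with no scaling beyond count totals, 89 with no low-count filter, 1670 with DESeq2, 29 with the GC trend removed, 1480 at an adjusted p of 0.1, 824 without controls 2 and 5, 1315 without controls 1 and 4, and 0 to 814 with each library left out (0 by edgeR without control 1, 2 or 5 or NAP 2, 4 or 5, with 2614 to 3311 at an unadjusted p below 0.05; 814 without NAP 1). A replicate block, for numbers that did not pair the libraries (same-number correlations −0.30 to 0.42, and 2 of 5 highest with their own number), left 0 calls by edgeR, with 2903 at an unadjusted p below 0.05. Depth limits the snoRNA rows, many of which had under 10 counts in some libraries.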
